A study of Homo sapiens with 63 samples.

Results

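RN7SK, RN7SL1, RN7SL2, RMRP and RPPH1 are 5 short noncoding RNAs that RNA polymerase III makes in large amounts. They were taken from the count table by symbol, 5 of its 58336 genes, and each is described here as a share of all counts in a library. All 5 passed the filter on low counts, as did 19352 genes in total. RN7SK (7SK RNA) holds the elongation factor P-TEFb inactive in a particle with HEXIM and LARP7 proteins. RN7SL1 and RN7SL2 are near-identical copies of 7SL RNA, the scaffold of the signal recognition particle, which brings ribosomes that make secreted and membrane proteins to the endoplasmic reticulum. RMRP is the RNA of RNase MRP, which takes part in the processing of ribosomal RNA, and RPPH1 is the catalytic RNA of RNase P, which trims the 5′ end of precursor tRNAs. Polymerase III reads 7SK, RMRP and RPPH1 from promoters that lie outside the transcribed part, through the SNAPc complex, whereas 7SL genes also use elements inside it. None of the 5 RNAs is translated or, as a rule, polyadenylated, so they are seen in libraries of total RNA and largely missed by poly(A) selection.

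RNA came from HEK293T, an established human embryonic kidney cell line, in which the Halo tag was expressed ectopically in every group, the DMSO controls included, as far as the design text says. The 63 libraries form 21 groups of 3, from 7 arms at 6, 12 and 18 h. The arms were ibufenac probe, ibuprofen probe, ibufenac photocaged, ibuprofen photocaged, ibufenac bolus, ibuprofen bolus and DMSO. Ibufenac is ibuprofen without the methyl group next to the carboxylic acid, and both drugs form acyl glucuronides. The design text gives Halo-binding precursors of the drugs' acyl glucuronides at 10 µM for 2 h, washes, and 3 min of light at 365 nm and 5 mW/cm2. It does not say how photocaged and probe arms differ, which arms were lit, what dose the bolus was, or whether replicates were separate cultures, so p-values measure only the spread between these libraries, which may be technical. Ribosomal RNA was depleted from total RNA, and the libraries were stranded.

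Library totals, in 1e6 counts, ran from 12.1 to 38.4, with a median of 19.6. Of the HEK293T markers, VIM lay at 313 to 530 CPM (counts scaled to the library total) and KRT18 at 34.5 to 59.8, while PAX2 was at or under 0.834. Blood markers summed to at most 0.335 CPM, and hepatocyte markers to 2.58 to 11.6 CPM, most of it TF. Fibroblast markers summed to 2.14 to 9.16 CPM. No 2 libraries of a group were duplicates. By the root mean square log2 difference from its mates over genes, ibufenac probe 6 h replicate 3, ibufenac bolus 6 h replicates 3 and 2, ibufenac probe 12 h replicate 3 and ibufenac bolus 18 h replicate 3 had the highest values. A chi-square of the counts orders libraries otherwise, and calls at single times were refitted without 1 library at a time. Bulk values cannot tell fewer cells from less RNA per cell.

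The members were compared by sequence, from GENCODE release 29 transcripts on GRCh38, since their likeness bears on how reads can be told apart. Each member is a single noncoding gene. RN7SL1 and RN7SL2 both lie on chromosome 14, and they are identical in 295 of 300 aligned columns (98.3%). Reads that miss the differing bases cannot be assigned to one copy by their bases, and the share of such reads was not measured. Another copy, RN7SL3, is identical to RN7SL1 in 97.7% of columns.

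RN7SK lies at chr6:52995621-52995948 on the plus strand. Its first 110 bases are shown because the 5′ part of 7SK RNA holds the GATC motifs (GAUC in the RNA) that HEXIM1 is known to bind, and capitals mark each GATC.
RN7SK 1 to 110: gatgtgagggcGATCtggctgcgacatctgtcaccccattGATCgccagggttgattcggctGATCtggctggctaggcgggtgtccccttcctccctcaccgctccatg
The whole of RN7SK holds 3 GATC, all within these bases. GATC reads the same on both strands. RN7SL1 and RN7SL2 hold 4 each, and RMRP and RPPH1 hold 0. Among 4029 transcripts of similar length, 68.4% hold GATC at least once and 12.0% hold as many as RN7SK or more.

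RMRP lies at chr9:35657754-35658017 and RPPH1 at chr14:20343075-20343407, both on the minus strand. The stretches printed surround the longest run of bases that these related ribozyme RNAs share, which is 9 bases long and in capitals.
RMRP 192 to 264: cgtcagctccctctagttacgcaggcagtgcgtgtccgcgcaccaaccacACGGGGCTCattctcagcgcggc
RPPH1 96 to 204: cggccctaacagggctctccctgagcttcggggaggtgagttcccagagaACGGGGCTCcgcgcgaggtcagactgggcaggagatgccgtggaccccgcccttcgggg
How often unrelated sequences of these lengths share a run of 9 bases was not tested, so the run is not read as a sign of kinship. RMRP and RPPH1 are little alike, with 45.7% of aligned columns identical over their whole length, which is close to the 44.7 to 49.0% of the unrelated pairs of members. GC content is 58.2% in RN7SK and 62.7 to 64.6% in the other members.

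The members differ in how many other genes carry their sequence. Of the 31-base windows of RN7SL1, 269 of 269 also occur in transcripts of other genes, as do 256 of 270 in RN7SL2 and 267 of 298 in RN7SK. No window of RMRP (0 of 234) or RPPH1 (0 of 303) does, once the overlapping entries at the RN7SK, RMRP and RPPH1 loci are left out. Counts of the 7SL copies and of RN7SK therefore depend on how the authors' program shared out reads, which the sources used here do not give. Those of RMRP and RPPH1 depend on it where the overlapping entries, described further on, take reads. The copies outside the members took few counts. RN7SL3 held a median of 0.157% of a library, 311 of 677 listed RN7SL pseudogenes with any count together held 0.0271%, and 102 of 293 RN7SK pseudogenes held 0.00501%.

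The table also has a second entry at the RMRP locus, 268 bases long against 264. Its counts ran from 335 to 29748 and were whole multiples of 67 in 63 of 63 libraries. It took 0.603 to 11.1% of the counts of both entries. A second 7SK entry and a gene overlapping RPPH1 were smaller, with medians of 0.00262% and 0.00987% of a library.

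The 5 members were the 5 most abundant entries of the table by mean share. Together they took 11.9 to 28.1% of a library, with a median of 21.1%. RN7SL1 had the highest median share, 8.16% (lowest 3.77%, highest 10.5%). RN7SL2 followed with 6.19% (2.89 to 8.16%), and RN7SK with 5.31% (2.18 to 7.29%). RPPH1 with 0.900% (0.432 to 1.69%) and RMRP with 0.829% (0.239 to 1.48%) were lower and close to EEF1A1, the next entry, which averaged 0.731%. By rank within a library, RN7SL1 stood at 1 or 2, RN7SL2 at 2 or 3 and RN7SK at 1 to 3, whereas RMRP stood at 4 to 9 and RPPH1 at 4 to 8. No member had under 46350 counts in any library, so counting error is small beside the spread between libraries.

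Per length, the order of the levels was the same at the top and changed at the bottom. The deposited FPKM, fragments scaled to gene length and library size, had medians of 272774 for RN7SL1, 206436 for RN7SL2 and 161980 for RN7SK. RMRP, the shortest member at 264 bases, had 31420, and RPPH1, the longest at 333, had 27022. Shares of RMRP varied most between libraries, 6.19-fold from lowest to highest, then RPPH1 at 3.92-fold and RN7SK at 3.34-fold. RN7SL2 and RN7SL1 varied least, at 2.82-fold and 2.79-fold.

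At 6 h, RN7SK took up 6.13 ± 0.034% with the ibufenac probe, 2.87 ± 0.60% with the ibuprofen probe, 4.50 ± 0.95% with the ibufenac photocaged, 4.82 ± 0.60% with the ibuprofen photocaged, 4.37 ± 1.49% with the ibufenac bolus, 3.06 ± 0.77% with the ibuprofen bolus, against 4.87 ± 0.75% with DMSO. At 12 h, RN7SK took up 4.14 ± 0.89% with the ibufenac probe, 6.00 ± 0.19% with the ibuprofen probe, 6.03 ± 0.33% with the ibufenac photocaged, 5.77 ± 0.63% with the ibuprofen photocaged, 5.46 ± 0.21% with the ibufenac bolus, 4.13 ± 0.88% with the ibuprofen bolus, against 4.32 ± 0.61% with DMSO. At 18 h, RN7SK took up 5.83 ± 0.64% with the ibufenac probe, 5.14 ± 0.86% with the ibuprofen probe, 4.95 ± 1.03% with the ibufenac photocaged, 5.05 ± 1.48% with the ibuprofen photocaged, 4.61 ± 1.96% with the ibufenac bolus, 6.86 ± 0.57% with the ibuprofen bolus, against 6.34 ± 0.14% with DMSO. Values are means ± SD of 3 libraries, here and for the other members. RN7SK was highest with the ibuprofen bolus at 18 h and lowest with the ibuprofen probe at 6 h. When the 21 groups were put in order, 14 of 20 neighbouring pairs lay closer together than the smaller of their SDs, so most of the order is not resolved.

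At 6 h, RN7SL1 took up 9.39 ± 0.40% with the ibufenac probe, 8.01 ± 1.04% with the ibuprofen probe, 8.07 ± 1.29% with the ibufenac photocaged, 8.75 ± 0.65% with the ibuprofen photocaged, 7.48 ± 1.29% with the ibufenac bolus, 7.52 ± 0.68% with the ibuprofen bolus, against 7.59 ± 0.34% with DMSO. At 12 h, RN7SL1 took up 8.09 ± 1.89% with the ibufenac probe, 7.90 ± 0.52% with the ibuprofen probe, 8.31 ± 0.92% with the ibufenac photocaged, 8.86 ± 0.36% with the ibuprofen photocaged, 7.30 ± 0.94% with the ibufenac bolus, 5.75 ± 1.86% with the ibuprofen bolus, against 6.93 ± 0.42% with DMSO. At 18 h, RN7SL1 took up 8.37 ± 0.38% with the ibufenac probe, 9.44 ± 0.73% with the ibuprofen probe, 7.82 ± 0.14% with the ibufenac photocaged, 8.74 ± 1.53% with the ibuprofen photocaged, 7.63 ± 0.49% with the ibufenac bolus, 9.50 ± 0.49% with the ibuprofen bolus, against 9.41 ± 0.31% with DMSO. RN7SL1 was highest with the ibuprofen bolus at 18 h and lowest with the same arm at 12 h, where the 3 libraries spread widely at 3.77, 6.04 and 7.44%. Of 20 neighbouring pairs, 17 lay closer than the smaller SD.

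At 6 h, RN7SL2 took up 7.13 ± 0.34% with the ibufenac probe, 6.13 ± 0.67% with the ibuprofen probe, 6.16 ± 1.11% with the ibufenac photocaged, 6.34 ± 0.68% with the ibuprofen photocaged, 5.63 ± 0.62% with the ibufenac bolus, 5.48 ± 0.35% with the ibuprofen bolus, against 5.62 ± 0.22% with DMSO. At 12 h, RN7SL2 took up 6.42 ± 1.30% with the ibufenac probe, 6.30 ± 0.35% with the ibuprofen probe, 6.24 ± 0.42% with the ibufenac photocaged, 6.54 ± 0.32% with the ibuprofen photocaged, 5.52 ± 0.79% with the ibufenac bolus, 4.55 ± 1.46% with the ibuprofen bolus, against 5.65 ± 0.32% with DMSO. At 18 h, RN7SL2 took up 7.12 ± 0.41% with the ibufenac probe, 7.62 ± 0.47% with the ibuprofen probe, 6.06 ± 0.41% with the ibufenac photocaged, 6.42 ± 0.70% with the ibuprofen photocaged, 5.51 ± 0.50% with the ibufenac bolus, 7.27 ± 0.34% with the ibuprofen bolus, against 7.46 ± 0.076% with DMSO. RN7SL2 was highest with the ibuprofen probe at 18 h and lowest, like its twin, with the ibuprofen bolus at 12 h, where its libraries held 2.89, 5.11 and 5.63%. Of 20 neighbouring pairs, 15 lay closer than the smaller SD.

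At 6 h, RMRP took up 1.25 ± 0.015% with the ibufenac probe, 0.372 ± 0.084% with the ibuprofen probe, 0.663 ± 0.415% with the ibufenac photocaged, 0.759 ± 0.162% with the ibuprofen photocaged, 0.833 ± 0.333% with the ibufenac bolus, 0.420 ± 0.116% with the ibuprofen bolus, against 0.863 ± 0.209% with DMSO. At 12 h, RMRP took up 0.526 ± 0.170% with the ibufenac probe, 1.09 ± 0.082% with the ibuprofen probe, 1.00 ± 0.12% with the ibufenac photocaged, 0.978 ± 0.272% with the ibuprofen photocaged, 0.934 ± 0.045% with the ibufenac bolus, 0.582 ± 0.236% with the ibuprofen bolus, against 0.552 ± 0.179% with DMSO. At 18 h, RMRP took up 0.779 ± 0.225% with the ibufenac probe, 0.680 ± 0.136% with the ibuprofen probe, 0.561 ± 0.217% with the ibufenac photocaged, 0.724 ± 0.301% with the ibuprofen photocaged, 0.580 ± 0.313% with the ibufenac bolus, 1.24 ± 0.27% with the ibuprofen bolus, against 1.15 ± 0.034% with DMSO. RMRP was highest and lowest in the 2 probe arms at the same time, with ibufenac and ibuprofen at 6 h. Of 20 neighbouring pairs, 16 lay closer than the smaller SD. Its spread within a group was the largest of the members, and in the ibufenac photocaged group at 6 h the 3 libraries held 0.273, 0.617 and 1.10%.

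At 6 h, RPPH1 took up 1.30 ± 0.13% with the ibufenac probe, 0.592 ± 0.051% with the ibuprofen probe, 0.781 ± 0.304% with the ibufenac photocaged, 0.805 ± 0.134% with the ibuprofen photocaged, 0.741 ± 0.267% with the ibufenac bolus, 0.552 ± 0.029% with the ibuprofen bolus, against 0.825 ± 0.186% with DMSO. At 12 h, RPPH1 took up 0.713 ± 0.260% with the ibufenac probe, 1.24 ± 0.13% with the ibuprofen probe, 1.09 ± 0.23% with the ibufenac photocaged, 1.11 ± 0.11% with the ibuprofen photocaged, 0.890 ± 0.092% with the ibufenac bolus, 0.802 ± 0.220% with the ibuprofen bolus, against 0.665 ± 0.108% with DMSO. At 18 h, RPPH1 took up 0.993 ± 0.241% with the ibufenac probe, 0.873 ± 0.112% with the ibuprofen probe, 0.791 ± 0.157% with the ibufenac photocaged, 0.824 ± 0.246% with the ibuprofen photocaged, 0.816 ± 0.221% with the ibufenac bolus, 1.41 ± 0.32% with the ibuprofen bolus, against 1.38 ± 0.06% with DMSO. RPPH1 was highest with the ibuprofen bolus at 18 h, just above DMSO at 18 h, and lowest with the ibuprofen bolus at 6 h. Of 20 neighbouring pairs, 15 lay closer than the smaller SD.

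**Figure D1:**
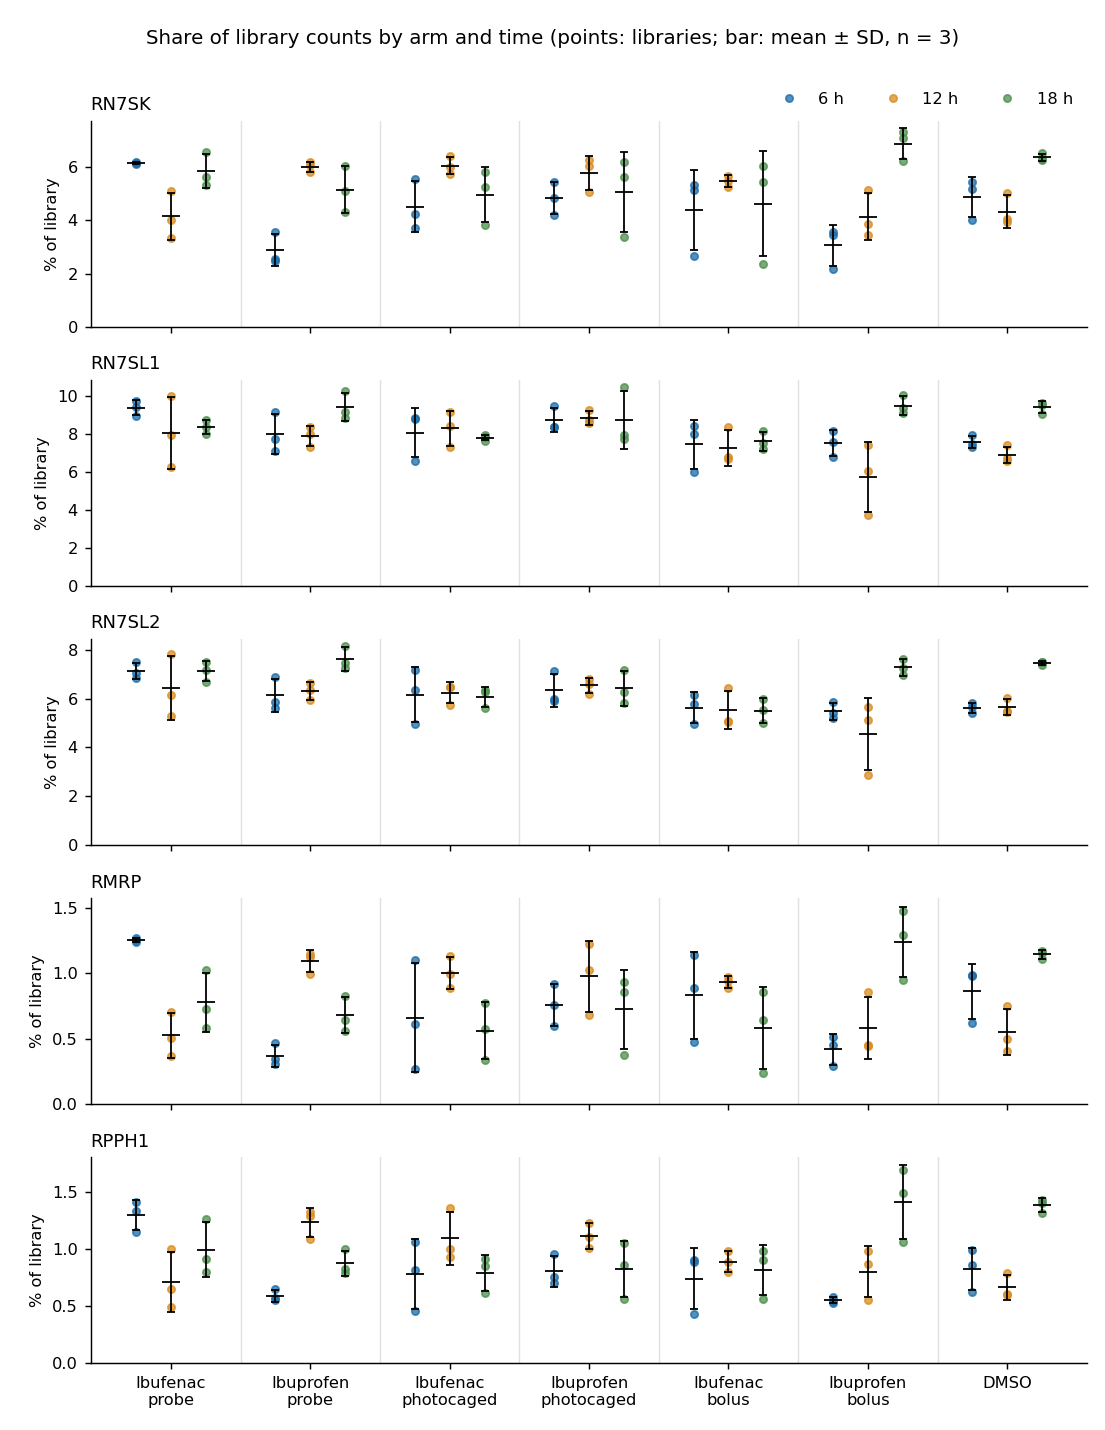
Share of library counts (percent, linear axis from 0) of each member by arm, with 6, 12 and 18 h side by side in each arm. Points are libraries and bars are the mean ± SD of 3 libraries; RN7SL1 and RN7SL2 sit between 2.89 and 10.5%, RMRP and RPPH1 below 1.7%, and libraries of 1 group often spread as widely as the groups do.

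The spread inside groups was about as large as that between them. On the log2 scale the within-group SD was 0.49 for RMRP, 0.34 for RPPH1, 0.31 for RN7SK, 0.19 for RN7SL1 and 0.18 for RN7SL2. The SD of the 21 group means was 0.52, 0.39, 0.33, 0.18 and 0.19 in the same order.

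Within groups the members' shares were correlated, to different degrees in different pairs. Over the 63 libraries, with log2 shares taken as deviations from the group mean, RN7SK and RMRP had Pearson's r = 0.92 and Spearman's rho = 0.95. RMRP and RPPH1 had r = 0.85 and rho = 0.86, and RN7SK and RPPH1 r = 0.80 and rho = 0.81. The 7SL copies had r = 0.91 and rho = 0.82 with each other. For these 4 pairs the permutation p of r was 1e-05, the smallest that 100000 shuffles within groups can give, and 2.5e-05 after adjustment over the 10 pairs (2-sided); rho had the same values. Without the 2 libraries farthest from the median of the first member, r was 0.92, 0.82, 0.76 and 0.86 for the pairs in the order given.

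The 6 pairs of a 7SL copy with another member were looser, with r of 0.39 to 0.53 and rho of 0.49 to 0.60 (adjusted permutation p of r 0.00156 to 0.043, of rho 0.0001 to 0.00144). The order of the pairs was not the same at each time. In the 6, 12 and 18 h libraries taken apart, r was 0.91, 0.58 and 0.95 for RMRP with RPPH1 and 0.89, 0.96 and 0.70 for the 7SL copies with each other. It was 0.58, 0.49 and 0.71 for RN7SK with RN7SL2, 0.81, 0.27 and 0.56 for RN7SL1 with RPPH1 and 0.71, 0.14 and 0.59 for RN7SL2 with RPPH1. Without the 6 h libraries, r was 0.36 for RN7SK with RN7SL1, 0.39 for RN7SL1 with RMRP, 0.33 for RN7SL1 with RPPH1 and 0.25 for RN7SL2 with RPPH1, and these 4 pairs no longer passed (adjusted permutation p 0.0843, 0.0685, 0.224 and 0.345). Libraries share their total in these shares, so a share that is high leaves less for other genes.

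**Figure D2:**
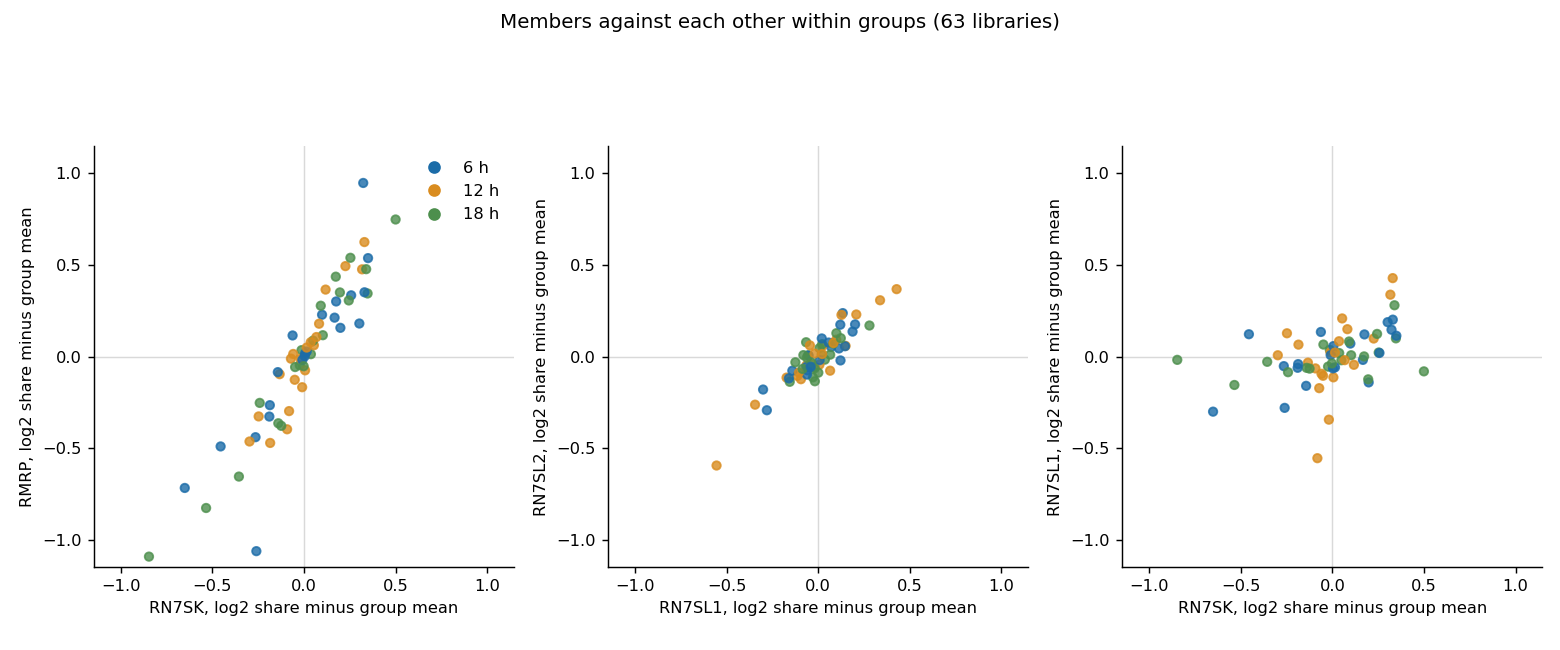
Log2 share of library counts minus the group mean for RMRP against RN7SK, RN7SL2 against RN7SL1 and RN7SL1 against RN7SK, 1 point per library, coloured by time. The first and second panels form narrow bands (r = 0.92 and 0.91) and the third a cloud (r = 0.44).

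Ratios between members differed in how far they ranged. The ratio of RN7SL1 to RN7SL2 counts stayed between 1.06 and 1.51 in 63 libraries, with a median of 1.30 and a within-group SD of 0.08 on the log2 scale. RN7SK over RN7SL1 ran from 0.267 to 1.02, and RMRP over RPPH1 from 0.423 to 1.26. RN7SK over RMRP ran from 4.68 to 13.6.

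To ask whether a drug arm as a whole differed from DMSO, each arm was averaged over the 3 times, with 9 libraries an arm. No member was called in any arm, but an average can hide times of opposite sign. RMRP with the ibuprofen probe was at -1.28, 1.04 and -0.80 at 6, 12 and 18 h. Of 30 averaged differences, 0 passed in edgeR's quasi-likelihood test and 0 in DESeq2, while 1 was under 0.05 before adjustment. That 1 was RN7SL2 with the ibufenac bolus (-0.21 ± 0.09, adjusted p = 0.529). Over all tested genes, 13.2% were called with the ibufenac probe, 8.42% with the ibuprofen probe, 7.49% with photocaged ibufenac, 4.28% with photocaged ibuprofen, 0.0103% with the ibufenac bolus and 0.0258% with the ibuprofen bolus.

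The averaged differences were small, but their intervals leave room for moderate ones. RN7SL1 lay between -0.13 and 0.14 (log2) over the 6 arms and RN7SL2 between -0.21 and 0.17, with 95% intervals at most 0.20 and 0.19 wide on each side. RN7SK lay between -0.23 and 0.07 and RPPH1 between -0.21 and 0.11, with intervals up to 0.29 and 0.32 on each side. RMRP lay between -0.35 and -0.01, and its intervals reached 0.45 on each side. The 6 comparisons share the 9 DMSO libraries.

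At single times, with 3 libraries a group, 4 of 90 differences from DMSO passed in edgeR, all of them lower in the drug arm. Before adjustment 33 were under 0.05, and in DESeq2 11 passed. Over all 19352 genes, 695 to 4929 were under 0.05 before adjustment, depending on the comparison. The members are correlated and the arms share DMSO libraries, so the 33 are not independent. With the ibuprofen probe at 6 h, RMRP and RN7SK fell. RMRP held 0.304, 0.345 and 0.467% in the 3 ibuprofen probe libraries, against 0.622, 0.977 and 0.988% in the 3 DMSO libraries (-1.28 ± 0.39, adjusted p = 0.0268). RN7SK held 2.49, 2.56 and 3.56% with the probe, against 4.02, 5.17 and 5.42% with DMSO (-0.83 ± 0.26, adjusted p = 0.0271). Neither pair of groups overlapped, but the share of all genes without overlap was not counted. RPPH1 was at -0.55 ± 0.28, adjusted p = 0.211, and RN7SL1 and RN7SL2 were at 0.01 and 0.06.

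Each call was lost without any 1 of 4 of the 6 libraries. RMRP no longer passed without ibuprofen probe replicate 1 (-1.14, adjusted p = 0.129), probe replicate 2 (-1.20, 0.126), DMSO replicate 2 (-1.16, 0.105) or DMSO replicate 3 (-1.18, 0.0974). RN7SK was lost without the same libraries, at -0.72 (0.137), -0.73 (0.148), -0.78 (0.0996) and -0.74 (0.112). With the GC slope of each library, defined further on, as a covariate, RMRP was at 0.03 and RN7SK at -0.04 (adjusted p = 0.972 and 0.955). That slope was -0.26, -0.26 and -0.12 in the ibuprofen probe libraries, against -0.06, 0.06 and 0.09 with DMSO. Its part in the result was not tested beyond that covariate. With slopes that do not overlap, the covariate cannot separate a library effect from one of the arm. Over all genes, 11.4% were called.

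With the ibufenac bolus at 18 h, RN7SL2 and RPPH1 fell. RN7SL2 held 5.00, 5.52 and 6.00% in the bolus libraries, against 7.37, 7.49 and 7.51% with DMSO (-0.59 ± 0.16, adjusted p = 0.0284). RPPH1 held 0.565, 0.900 and 0.983% with the bolus, against 1.31, 1.40 and 1.43% with DMSO (-0.90 ± 0.28, adjusted p = 0.0488). The groups did not overlap, though how many of all genes separate in this way was not counted. The lowest bolus library in both RNAs was replicate 3. RN7SL1, the near-identical copy, did not pass (-0.45 ± 0.17, adjusted p = 0.101), nor did the 7SL copies summed with RN7SL3 (-0.51, adjusted p = 0.0545). RMRP was at -1.11 ± 0.39, adjusted p = 0.0787, and its bolus libraries held 0.239, 0.646 and 0.855%, the lowest again replicate 3. DESeq2 called RMRP here (-1.11, adjusted p = 0.0415), and edgeR did without bolus replicate 2 (-1.51, adjusted p = 0.0261).

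Without bolus replicate 3, RN7SL2 was at -0.49 (adjusted p = 0.251) and RPPH1 at -0.67 (0.369). Leaving out DMSO replicate 1, 2 or 3 also ended both calls, with adjusted p of 0.0540, 0.0504 and 0.0651 for RN7SL2 and of 0.105, 0.0827 and 0.0779 for RPPH1, and leaving out bolus replicate 1 ended that of RPPH1 (0.0692). In a fit of these 6 libraries alone both had an adjusted p of 0.250, and with the GC slope as a covariate they were at -0.26 and -0.20 (adjusted p = 0.551 and 0.802). The slope was -0.28, -0.06 and 0.02 with the bolus, against 0.05, 0.15 and 0.20 with DMSO. Slope and arm thus go together here, and the covariate cannot tell them apart. Over all genes, 5.03% were called.

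In the other 16 comparisons with DMSO at a single time, 0 members passed in edgeR. DESeq2 called RMRP in 1 of them (photocaged ibufenac at 18 h, -1.15), RPPH1 in 4 (photocaged ibufenac and photocaged ibuprofen at 18 h, the ibuprofen probe at 12 h and the ibufenac probe at 6 h) and RN7SL2 in 1 (the ibufenac probe at 6 h, 0.45). The share of all genes called at 6 h was 12.7% for the ibufenac probe, 3.03% and 0.992% for photocaged ibufenac and ibuprofen, and 0.0258% and 0% for the ibufenac and ibuprofen bolus. At 12 h it was 4.51% and 1.97% for the ibufenac and ibuprofen probe, 1.58% and 0.677% for the photocaged arms, and 0% and 0.0103% for the bolus arms, in the same order of drugs. At 18 h it was 2.69% and 1.78% for the probe arms, 2.86% and 2.21% for the photocaged arms, and 0.0723% for the ibuprofen bolus.

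The direction of the differences went with the time point. At 6 h, 19 of 30 were lower in the drug arm than in DMSO, with a median of -0.06. At 12 h, 25 of 30 were higher, with a median of 0.27, and RPPH1 was higher in 6 of 6 arms (0.13 to 0.95). At 18 h, 26 of 30 were lower, with a median of -0.43, and RN7SL2 was lower in 6 of 6 arms (-0.59 to -0.02). All 6 arms share the 3 DMSO libraries of a time, so the signs at a time are not independent. RMRP in DMSO, given as an example, held 0.405, 0.499 and 0.752% at 12 h, against 1.11, 1.16 and 1.17% at 18 h. DMSO at 18 h and at 12 h were not tested against each other, for RMRP or over all genes. The median over all tested genes stayed between -0.02 and 0.02 in these 18 comparisons.

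**Figure D3:**
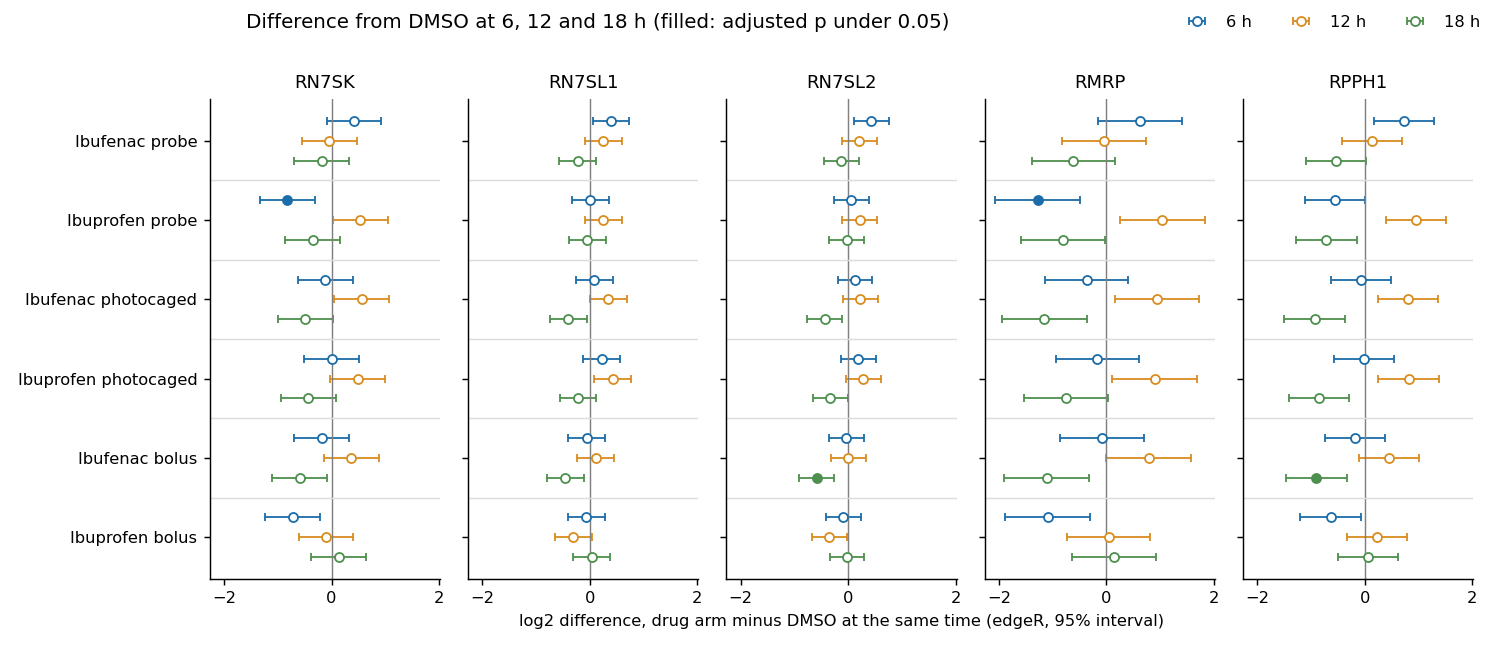
Log2 difference of each member between a drug arm and DMSO at the same time (edgeR, linear axis in log2 units), with 95% intervals, for 6 arms and 3 times. Filled points passed an adjusted p of 0.05: RMRP and RN7SK with the ibuprofen probe at 6 h and RN7SL2 and RPPH1 with the ibufenac bolus at 18 h, all below 0.

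Ibufenac was compared with ibuprofen in the same form and at the same time, which asks what the missing methyl group changes in the readout. Averaged over the times, 0 of 15 differences passed in edgeR and 0 in DESeq2, and 0 were under 0.05 before adjustment. Over all genes, 2.82% were called between the probes, 0.0362% between the photocaged forms and 0% between the boluses. The largest averaged differences were between the probes, for RMRP (0.33 ± 0.22, 95% interval -0.12 to 0.78, adjusted p = 0.462) and RN7SK (0.28 ± 0.15, 95% interval -0.01 to 0.57, adjusted p = 0.313). The intervals of RN7SL1 and RN7SL2 lay within -0.33 and 0.27 in all 3 forms.

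At single times, 3 of 45 differences passed in edgeR, all between the probes at 6 h and all higher with ibufenac. Before adjustment 17 were under 0.05, and in DESeq2 3 passed. Of all 19352 genes, 577 to 6543 were under 0.05 before adjustment, depending on form and time. RMRP held 1.24, 1.25 and 1.27% in the ibufenac libraries, against 0.304, 0.345 and 0.467% in the ibuprofen libraries (1.90 ± 0.40, adjusted p = 0.000385). RN7SK held 6.09, 6.15 and 6.16% with ibufenac, against 2.49, 2.56 and 3.56% with ibuprofen (1.25 ± 0.26, adjusted p = 0.000309). RPPH1 held 1.15, 1.33 and 1.41% with ibufenac, against 0.558, 0.567 and 0.650% with ibuprofen (1.29 ± 0.28, adjusted p = 0.000586). In each of the 3 RNAs every ibufenac library lay above every ibuprofen library. The share of all genes that separate so was not counted, while 23.6% were called in this comparison. The ibufenac libraries lay closer together than the ibuprofen libraries in RMRP and RN7SK, and farther apart in RPPH1.

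The 7SL copies differed less there and did not pass. RN7SL1 held 8.97, 9.43 and 9.76% with ibufenac, against 7.13, 7.74 and 9.15% with ibuprofen, and the groups overlapped (0.38 ± 0.17, adjusted p = 0.0981). RN7SL2 held 6.85, 7.03 and 7.51% with ibufenac, against 5.62, 5.87 and 6.90% with ibuprofen (0.37 ± 0.16, adjusted p = 0.0881), again with overlap. Without ibuprofen probe replicate 3 both passed, at 0.54 and 0.51 (adjusted p = 0.0336 and 0.0325). Over all genes, 23.6% were called between the probes at 6 h, with a median difference of -0.05.

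The calls of RMRP, RN7SK and RPPH1 held without each of the 6 libraries in turn (adjusted p at most 0.00639, 0.00565 and 0.00678). They did not hold with the GC slope as a covariate, which left 0.09, 0.14 and 0.16 (adjusted p = 0.923, 0.809 and 0.838). The slope was 0.07, 0.17 and 0.18 with ibufenac, against -0.26, -0.26 and -0.12 with ibuprofen. The slopes did not overlap, so the covariate cannot separate a library effect from a difference between the drugs. Mitochondrial mRNA took 0.201 to 0.232% of counts with ibufenac, against 0.283 to 0.378% with ibuprofen.

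At 12 h the order of the probes was turned round without passing. RMRP was at -1.09 ± 0.39, adjusted p = 0.122, RPPH1 at -0.82 ± 0.28, adjusted p = 0.0986 and RN7SK at -0.58 ± 0.25, adjusted p = 0.221. Without ibufenac probe 12 h replicate 3, RPPH1 passed (-1.22, adjusted p = 0.0222). At 18 h the probes differed by 0.17 to 0.19 in these 3 RNAs, with intervals of -0.59 to 0.97 for RMRP. Over all genes, 1.92% and 0% were called between the probes at 12 and 18 h.

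For the bolus, the members were higher with ibufenac at 12 h and lower at 18 h without passing. At 18 h, RMRP was at -1.25 ± 0.39, adjusted p = 0.225, RPPH1 at -0.95 ± 0.28, adjusted p = 0.225 and RN7SL2 at -0.57 ± 0.16, adjusted p = 0.225. Their unadjusted p were 0.00258, 0.00133 and 0.000961. At 6 h, RMRP was at 1.02 ± 0.39, adjusted p = 0.133, and at 12 h RN7SL1 at 0.41 ± 0.17, adjusted p = 0.435. Without ibuprofen bolus 12 h replicate 1, RN7SL1 passed at 12 h (0.69, adjusted p = 0.0255). Over all genes, 2.30%, 0.0362% and 0% were called at 6, 12 and 18 h. For the photocaged forms, all 15 differences lay between -0.40 and 0.07 with an adjusted p of 1, and 0%, 0% and 0% of all genes were called. The widest of their intervals, for RMRP at 18 h, ran from -1.18 to 0.38.

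**Figure D4:**
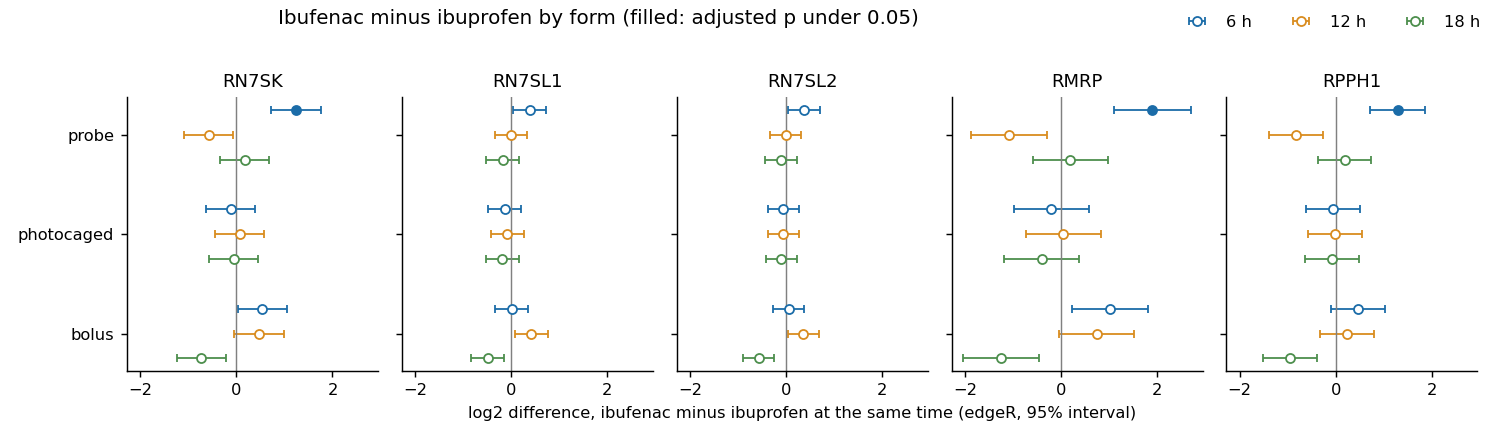
Log2 difference of each member, ibufenac minus ibuprofen, in the probe, photocaged and bolus forms at 6, 12 and 18 h (edgeR, linear axis in log2 units), with 95% intervals. Filled points passed an adjusted p of 0.05: RMRP (1.90), RN7SK (1.25) and RPPH1 (1.29) between the probes at 6 h, with the 12 h points of the same RNAs below 0.

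The probe form was compared with the photocaged form of the same drug over the 3 times. Of 10 differences, 0 passed in edgeR and 0 in DESeq2, while 1 was under 0.05 before adjustment. That 1 was RN7SL2 with ibufenac (0.20 ± 0.09, adjusted p = 0.295). RMRP was at 0.18 ± 0.22, adjusted p = 0.774 with ibufenac and at -0.34 ± 0.22, adjusted p = 0.673 with ibuprofen. Over all genes, 2.68% were called with ibufenac and 0.0982% with ibuprofen.

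Times were compared over the 7 arms, with 21 libraries a time, to see how the members stand as the culture goes on. Of 25 differences, DMSO alone included, 7 passed in edgeR, 6 higher and 1 lower at the later time, while 10 were under 0.05 before adjustment. DESeq2 passed 7 as well. RN7SK rose at 18 h, to a mean of 5.54%, against 4.37% at 6 h (0.35 ± 0.10, adjusted p = 0.00186). RPPH1 rose too, to 1.01% at 18 h, against 0.799% at 6 h (0.33 ± 0.11, adjusted p = 0.00705). RMRP did not pass (0.17 ± 0.15, adjusted p = 0.354). Between 18 and 6 h, 47.8% of all genes were called, so these are 2 members of 5 beside a share of about as many genes in general.

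Averaged over the 7 arms, the 7SL copies were lowest at 12 h, but this did not hold in each arm. RN7SL2 held 5.48, 4.55 and 7.27% at 6, 12 and 18 h with the ibuprofen bolus. In DMSO it held 5.62, 5.65 and 7.46%, and with photocaged ibuprofen 6.34, 6.54 and 6.42%. Over the 7 arms both copies rose at 18 h relative to 12 h. RN7SL1 rose to 8.70%, against 7.59% at 12 h (0.24 ± 0.06, adjusted p = 0.00858), and RN7SL2 to 6.78%, against 5.89% at 12 h (0.24 ± 0.06, adjusted p = 0.00503). Between 18 and 12 h, 12.6% of all genes were called. RN7SL1 fell at 12 h relative to 6 h (-0.16 ± 0.06, adjusted p = 0.0454), where 38.9% of genes were called. That last call passed in only 20 of the 42 fits without 1 library, at -0.20 to -0.12, whereas the other 4 passed in 42 of 42. It was also lost when libraries were scaled by their totals alone (-0.10, adjusted p = 0.115) or by totals without the 5 members (-0.15, adjusted p = 0.0676), and the summed 7SL copies did not pass there (-0.14, adjusted p = 0.0776). Summed with RN7SL3 so that reads shared by the copies count once, 7SL passed in 1 of 43 comparisons, 18 h against 12 h.

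In DMSO alone, RN7SL2 and RPPH1 rose at 18 h relative to 6 h. RN7SL2 held 7.37, 7.49 and 7.51% at 18 h, against 5.40, 5.64 and 5.83% at 6 h (0.45 ± 0.16, adjusted p = 0.0436), with 17.5% of all genes called. RPPH1 held 1.31, 1.40 and 1.43% at 18 h, against 0.625, 0.859 and 0.991% at 6 h (0.78 ± 0.28, adjusted p = 0.0437). Neither pair of groups overlapped, and how common this is over all genes was not counted. RN7SL2 missed the threshold without any 1 of the 6 libraries (0.43 to 0.48, adjusted p 0.0690 to 0.119), and RPPH1 without any but DMSO 6 h replicate 3 (adjusted p 0.0767 to 0.214 in the 5 fits that missed it). With the GC slope as a covariate RN7SL2 was at 0.31 and missed the threshold (adjusted p = 0.0836), and RPPH1 was at 0.49 and passed (0.0414). The 7SL copies summed with RN7SL3 did not pass (0.40, adjusted p = 0.0881). Between 12 and 6 h in DMSO, 0 members passed in edgeR, 0 were under 0.05 before adjustment and 0 passed in DESeq2, and 3.82% of all genes were called. The 2 DMSO comparisons share their 6 h libraries.

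The time course differed between arms in all 5 members. In the test of treatment by time, with 12 degrees of freedom, the adjusted p from edgeR was 8.63e-05 for RPPH1, 0.000199 for RMRP, 0.000894 for RN7SK, 0.0131 for RN7SL2 and 0.0163 for RN7SL1. Over all genes, 22.8% were called. RMRP is given as an example. With the ibufenac probe it averaged 1.25, 0.526 and 0.779% at 6, 12 and 18 h, with the ibuprofen probe 0.372, 1.09 and 0.680%, and with DMSO 0.863, 0.552 and 1.15%. The 7SL copies took another course with the ibuprofen probe. There RN7SL1 averaged 8.01, 7.90 and 9.44% and RN7SL2 6.13, 6.30 and 7.62%. All 5 passed in each of 63 fits without 1 library. With the GC slope as a covariate 0 of 5 passed (adjusted p 0.0686 to 0.371).

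The GC slope is a measure of each library taken from other genes. For 9324 protein-coding genes, the log2 CPM of a library, as a deviation from the gene's mean, was regressed on the GC content and length of the transcript, and the slope is the log2 change per 10 percentage points of GC. It ran from -0.28 to 0.20 between libraries. It comes from the same libraries as the members and may itself differ with arm or time. Where it does, a fit with this covariate cannot tell a library effect from one of arm or time. Within groups it moved with RMRP (r = 0.90, rho = 0.89), RN7SK (0.84 and 0.87) and RPPH1 (0.76 and 0.76), and less with RN7SL2 (0.52 and 0.52) and RN7SL1 (0.50 and 0.46). Adjusted permutation p-values of r over 25 relations of a member with a library measure were 8.33e-05 for RMRP, RN7SK and RPPH1, 0.00844 for RN7SL2 and 0.00895 for RN7SL1, from 100000 shuffles within groups, 2-sided. Without the 2 libraries of most extreme slope, r was 0.88, 0.83, 0.73, 0.52 and 0.51 in the order named. Within the 6, 12 and 18 h libraries taken apart it was 0.87, 0.92 and 0.93 for RMRP.

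Other measures moved with the members as well. Mitochondrial mRNA, 0.201 to 0.986% of counts, had r of -0.65 to -0.52 with the 5 members (rho -0.67 to -0.45, adjusted permutation p of r 0.000125 to 0.0146). Summed snRNAs, snoRNAs and other short structured RNAs of polymerase II, 0.154 to 0.771% of counts, had r of 0.30 to 0.69, and the relation passed for RPPH1 (0.69, adjusted permutation p = 0.00109), RMRP (0.54, 0.0120) and RN7SK (0.48, 0.0126). The slope on transcript length, from the same regression as the GC slope, had r of -0.55 to -0.26. It passed for RPPH1 (-0.55, adjusted permutation p = 0.0107) and RN7SK (-0.46, 0.0203). It did not pass for RN7SL1, RMRP or RN7SL2 (0.0965, 0.137 and 0.246). Library totals had r of 0.07 to 0.37 and did not pass (adjusted permutation p 0.126 to 0.708). The part of these measures in the members' differences was not tested, other than by the GC covariate above.

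**Figure D5:**
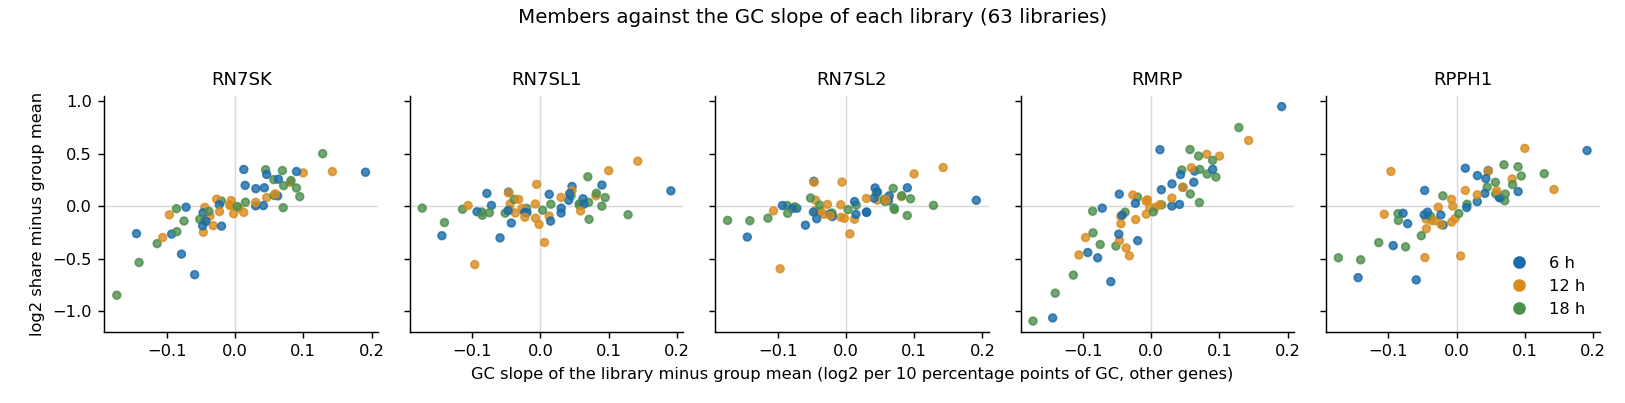
Log2 share of each member minus its group mean against the GC slope of the library minus its group mean (log2 per 10 percentage points of GC), 1 point per library, coloured by time. The points of RMRP follow a line most closely (r = 0.90) and those of RN7SL1 least (r = 0.50).

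The proteins that make and bind the members were read from written lists, each tested among all genes. The 18 subunits of polymerase III were all measured. With the ibuprofen probe 7 of 18 fell and 0 rose, with the ibufenac probe 4 fell and 1 rose, and with photocaged ibufenac 1 fell and 1 rose. Over all genes, 8.42%, 13.2% and 7.49% were called in these comparisons, 893 lower and 737 higher with the ibuprofen probe, so the 2 of 18 with photocaged ibufenac are near the share of genes in general. POLR2L, a subunit shared by all 3 nuclear polymerases, fell with the ibuprofen probe (-0.56 ± 0.18, adjusted p = 0.0446), and POLR3K, a polymerase III subunit that takes part in termination, fell with the ibufenac probe (-0.42 ± 0.08, adjusted p = 0.000107). The list medians were -0.07 and -0.03 with the ibuprofen and ibufenac probe, against -0.01 and -0.01 over all genes. Between the drugs' probes, POLR3E, another polymerase III subunit, was higher with ibufenac (0.18 ± 0.05, adjusted p = 0.0313). In both bolus arms 0 of 18 subunits passed.

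Of 18 initiation factors, ZNF143, an activator that binds promoters of snRNA-type polymerase III genes, fell in all 6 arms. It was at -0.47 with the ibufenac probe and -0.34 with the ibuprofen probe, at -0.31 and -0.28 with photocaged ibufenac and ibuprofen, and at -0.48 and -0.37 with the ibufenac and ibuprofen bolus (adjusted p 7.33e-06 to 0.0398). SNAPC4, the largest subunit of SNAPc, fell with the ibuprofen probe (-0.40 ± 0.09, adjusted p = 0.00327). In all, 2 fell and 1 rose with the ibufenac probe, 3 fell and 2 rose with the ibuprofen probe, 3 fell and 1 rose with photocaged ibufenac, 3 fell with photocaged ibuprofen, and 1 fell with either bolus. In both bolus arms that 1 was ZNF143. Of all genes, 13.2% were called with the ibufenac probe, near the 3 of 18 here, 8.42% with the ibuprofen probe, 7.49% and 4.28% with photocaged ibufenac and ibuprofen, and 0.0103% and 0.0258% with the ibufenac and ibuprofen bolus. GTF3C6, a subunit of TFIIIC, was lower with the ibufenac probe than with photocaged ibufenac (-0.26 ± 0.07, adjusted p = 0.0179).

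Among 7 regulators and binders of polymerase III transcripts, MYC, which activates polymerase III, fell with photocaged ibuprofen (-0.31 ± 0.06, adjusted p = 0.00153) and in the 3 other photocaged and probe arms. MAF1, the repressor of polymerase III, rose with the ibufenac probe (0.18 ± 0.06, adjusted p = 0.0291) and lay between -0.04 and 0.09 in the other arms. SSB, the La protein that binds the 3′ ends of new polymerase III transcripts, fell with the ibufenac probe (-0.17 ± 0.06, adjusted p = 0.0414). RB1, a repressor of polymerase III, rose with the ibuprofen probe (0.20 ± 0.06, adjusted p = 0.0192). NUAK1, a kinase, was lower with the ibufenac than with the ibuprofen probe (-0.26 ± 0.06, adjusted p = 0.00634). Of all genes, 13.2% and 8.42% were called with the ibufenac and ibuprofen probe. The share was 7.49% and 4.28% with photocaged ibufenac and ibuprofen, and 2.82% between the probes. A list of 7 genes says little about a difference from these shares.

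The protein partners of 7SK gave 12 measured genes, of which 4 fell with the ibufenac probe, 2 with each of the ibuprofen probe, photocaged ibufenac and photocaged ibuprofen, and 0 in either bolus arm, with none higher in any arm. The shares of all genes called were 13.2%, 8.42%, 7.49% and 4.28% in the order named, and lists of this size say little about a difference from them. HEXIM1, which 7SK RNA holds against P-TEFb, fell with the ibufenac probe (-0.37 ± 0.09, adjusted p = 0.00403) and with the ibuprofen probe (-0.39 ± 0.09, adjusted p = 0.00478), and lay between -0.09 and -0.05 in the other 4 arms. SRSF2, a splicing factor that associates with the 7SK particle, fell with the ibuprofen probe (-0.26 ± 0.03, adjusted p = 4.01e-07).

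Of 8 proteins of the signal recognition particle and its receptor, SRPRB, the receptor's membrane subunit, rose with photocaged ibufenac (0.22 ± 0.04, adjusted p = 0.000533) and photocaged ibuprofen (0.14), and SRP9, which binds the Alu part of 7SL RNA, fell with the ibufenac probe (-0.20 ± 0.04, adjusted p = 0.0001). SRP9 was also lower with the ibufenac than with the ibuprofen probe (-0.17 ± 0.04, adjusted p = 0.00408). Of 11 RNase P and RNase MRP proteins, POP1, the largest shared subunit, fell with the ibufenac probe (-0.21 ± 0.07, adjusted p = 0.0269), and 0 passed in the other 5 arms. With the ibufenac probe, where 13.2% of all genes were called, 1 of the 8 and 1 of the 11 passed, near that share. RPP14 was lower with the ibufenac probe than with photocaged ibufenac (-0.17 ± 0.04, adjusted p = 0.00779).

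Other noncoding RNAs served as a comparison. Of 18 further polymerase III RNAs on the list, such as U6, Y and vault RNAs, 4 passed the filter on low counts and 0 of the 4 differed from DMSO in any averaged comparison. Of 29 snRNAs, snoRNAs and other short structured RNAs made by polymerase II, 22 were tested and 0 passed. Over all genes, 13.2% and 8.42% were called with the ibufenac and ibuprofen probe and 7.49% and 4.28% with the photocaged forms. With the ibufenac and ibuprofen bolus the shares were 0.0103% and 0.0258%. Lists this short say little about a difference from these shares. Of 6 long abundant noncoding RNAs, KCNQ1OT1, an antisense transcript of an imprinted locus, fell with the ibufenac probe (-0.35 ± 0.05, adjusted p = 2.23e-06), the ibuprofen probe (-0.24) and both photocaged arms (-0.31 with ibufenac and -0.23 with ibuprofen). MALAT1, a nuclear speckle RNA, rose with the ibufenac probe (0.32 ± 0.09, adjusted p = 0.0123). NEAT1, the scaffold of paraspeckles, was higher there than with photocaged ibufenac (0.42 ± 0.11, adjusted p = 0.0187), where 2.68% of all genes were called.

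The genes whose levels followed the members most closely over the 63 libraries were sought among 9676 genes with a mean of at least 10 CPM, by Pearson's r of log2 CPM. For RN7SK they were RPS19 (r = 0.947), RPL36 (0.945) and RPS28 (0.945), which encode ribosomal proteins. For RMRP they included RPS28 (0.965), a ribosomal protein gene, and B3GAT3 (0.960), an enzyme of glycosaminoglycan synthesis. RPPH1 was followed by RPL18 (0.947), a ribosomal protein gene, SCARNA2 (0.938), a small Cajal body RNA, and COX6A1 (0.922), a subunit of cytochrome c oxidase. For RN7SL1 they were RPS29 (0.878), RPS10 (0.849) and SCARNA13 (0.829), and for RN7SL2 RPS10 (0.839), RPLP0 (0.839) and RPL13 (0.817), again ribosomal protein genes but for SCARNA13, a small Cajal body RNA. These r are a description over libraries that differ in arm, time, depth and GC slope.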

How the data were processed

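RNA-seq of 63 HEK293T libraries was read from the deposited table, in which the authors gave expected counts and FPKM per gene. The ribosomal depletion and stranded kit are given per the labels' protocols. No source used here names the aligner, the counting program or the genome build. Expected counts were rounded to whole numbers (22.6% of values of at least 1 were not whole). A member's share is its expected count over the library's total, and FPKM was used only for levels per length. Differences were tested with edgeR 4.0.16 (R 4.3.3), with 21 group means, TMM factors, genes kept by filterByExpr with a minimum count of 10, the quasi-likelihood test, and Benjamini-Hochberg adjustment over the 19352 genes tested within each comparison, at a threshold of 0.05. The tests were checked on counts simulated with the same dispersion for all genes and no library effects. Their error rate for the members was not tested by this. DESeq2 1.42.0, other scalings, no filter, a replicate block, the compared groups alone and leaving out each library were alternatives. The GC slope covariate and the adding in of second entries were chosen after seeing the data. Sequences and loci were taken from GENCODE 29 on GRCh38. Genes of the lists were named where they passed the test in an averaged comparison. The members and lists were chosen with earlier results of these data known, so no list is independent support. Correlations used 100000 shuffles within groups. A few sequences and 1 gene are not reported here.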

Additional observations from a re-analysis of the deposited data

Results flagged for a closer look

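The time course of each member differed between arms in a test of the difference itself, edgeR's test of treatment by time, with an adjusted p of 0.000894 for RN7SK, 0.0163 for RN7SL1, 0.0131 for RN7SL2, 0.000199 for RMRP and 8.63e-05 for RPPH1. With the GC slope as a covariate none of the 5 passed. The slope can itself differ with arm and time, so that fit cannot tell these apart. The part of library composition was not tested further.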

How the results depend on the processing

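Calls at single times depend most on the processing. With the GC slope of each library as a covariate, chosen after seeing the data, 0 of 90 differences from DMSO, 0 of 45 between drugs and 0 of 5 interactions passed, against 4, 3 and 5, and RMRP with the ibuprofen probe at 6 h was at 0.034, against -1.28 without the covariate. With the same covariate 10 of 25 time differences passed, against 7: RN7SL2 (-0.19) and RMRP (-0.17) at 12 h relative to 6 h and RN7SK (0.23) and RPPH1 (0.23) at 18 h relative to 12 h were gained, RN7SL2 in DMSO was lost, and RN7SK and RPPH1 kept their calls at 18 h relative to 6 h (0.24 and 0.23). The slope can differ with arm or time, so the fits with this covariate cannot separate a library effect from one of arm or time. DESeq2 called 11 of the 90. In fits of the compared groups alone, 24 of the 90, 6 of the 45 and 11 of 25 time differences passed, against 4, 3 and 7. Without a filter on low counts, 17 and 57 differences from DMSO (averaged and single), 6 and 22 between drugs, 6 between forms and 23 between times passed. That fit moderated the members' quasi-dispersions to 0.235 to 0.326, far below their own values of 2.58 to 15.4, so its calls are not read. Same-numbered libraries had a mean r of 0.008 over 189 pairs, against -0.004 over 378 pairs of different numbers. Of 63 libraries, 26 correlated best with their own number. These values show little pairing by number, but with 3 libraries a group they cannot exclude it. With a replicate block 7 time differences passed, 4 differences from DMSO at single times, 3 between drugs and 5 interactions, as without it. Leaving out 1 library at a time gave 2 to 5 calls against DMSO at single times, 3 to 5 between drugs, 4 to 8 between times, 5 to 5 interactions and 0 to 0 in the averaged comparisons. Without the 6 h libraries 6 of 10 correlations between members passed.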
